A study of Drosophila melanogaster with 6 samples.

Results

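The fibroblast growth factor (FGF) system of Drosophila was examined in S2 cells, an embryo-derived line with features of blood cells. The cells had been treated with protocatechuic aldehyde (PA, 0.1 mM) for 2 h, or with vehicle. Both groups were grown in the same medium with insulin and fetal bovine serum. There were 3 samples in each group, with 1 array per sample. The 6 genes bnl, pyr, ths, btl, htl and stumps were chosen by name as the ligands, receptors and receptor adaptor of this system, after the difference between PA and vehicle in bnl had been seen on these arrays. The values of that contrast are therefore given for these genes as a description and not as a test. All probe sets annotated to exactly 1 of the genes were taken, which gave 7 of the 18769 probe sets tested: 3 for bnl (NCBI Gene 42356) and 1 each for pyr (36255), ths (36258), btl (39564) and htl (42160). These are 5 of the 11982 genes with a probe set. No probe set was matched to stumps (41770), so its level is not described here.

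FGF ligands are secreted and switch on receptor tyrosine kinases at the surface of other cells. Branchless (bnl) is the ligand of Breathless (btl), a receptor tyrosine kinase that guides the migration of tracheal branches. Cells short of oxygen raise bnl in the larva, and the branches grow towards them. Pyramus (pyr) and Thisbe (ths) are the ligands of the other receptor, Heartless (htl), which directs the spreading of the early mesoderm. Both receptors need the adaptor Stumps to reach the Ras/MAPK cascade.

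The data are MAS5 signals, linear intensities for each probe set that had been scaled to a trimmed mean of 500 on each array. Whether a probe set was called present is not given in the sources used here, so the rank of its mean log2 signal among all tested probe sets is given as a percentile. Probe sets differ in how strongly they bind, so the signals of different probe sets do not rank transcript amounts. The labelled cell type was checked with 11 blood cell markers, among them Hml, srp and He. All 11 lay in the upper 50% of signal, and 10 lay above the 75th percentile. Their summed signal was 38828 to 41066 on the PA arrays and 38461 to 39859 on the vehicle arrays. Of these 11 markers 2 (Hml and NimC1) rose and 2 (srp and Ppn) fell at a limma adjusted p under 0.05 (18.2% in each direction, against 2.58% of all genes called higher and 3.61% lower). The markers had a median percentile of 93.6, whereas those shares are over genes at all signal levels, so they are not a like background. The log2 fold changes of the markers lay between -0.31 and 0.15, and their part in the other results was not tested. Of 6 measured tracheal markers 3 lay in the upper 50% of signal (knrl, pio and verm, at percentiles 72.5, 51.4 and 51.0). None of the 6 (0) lay above the 75th percentile, and the lowest, vvl, lay at percentile 12.9. Of 8 listed mesodermal markers only 3 (twi, sna and bap) were measured, all in the lower 50% of signal. In the upper 50% lay 1 of 3 measured markers of nerve and glia (elav, percentile 66.0). So did 2 of 4 measured markers of fat body and germline (bam, 62.5, and Lsp2, 55.1).

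One FGF ligand, bnl, was higher after PA by more than the spread between arrays. The other ligand with a clear signal, pyr, differed little between the groups, and ths and both receptors gave only weak signals. The brightest probe set of bnl, 1627135_at (percentile 67.1), had signals of 318, 327 and 295 on the PA arrays, against 133, 136 and 149.8 on the vehicle arrays. The groups did not overlap, and the lowest PA array stood well above the highest vehicle array. The mean signal was 313 ± 16.6 with PA and 139.7 ± 8.93 with vehicle (SD, n = 3 each), a ratio of 2.24. The log2 fold change was 1.17 with a standard error of 0.10 and a 95% interval of 0.95 to 1.38. The replicate SD of this probe set was 0.08 on the log2 scale, against a median of 0.13 over the 1877 probe sets within 5 percentile points of its brightness. For the other bnl probe sets it was 0.51 (1637225_at) and 1.84 (1634109_a_at), against medians of 0.42 and 0.96 at their brightness, and for pyr 0.09 against 0.06. In a bulk sample, more cells that make bnl and more bnl RNA per cell cannot be told apart.

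**Figure D1:**
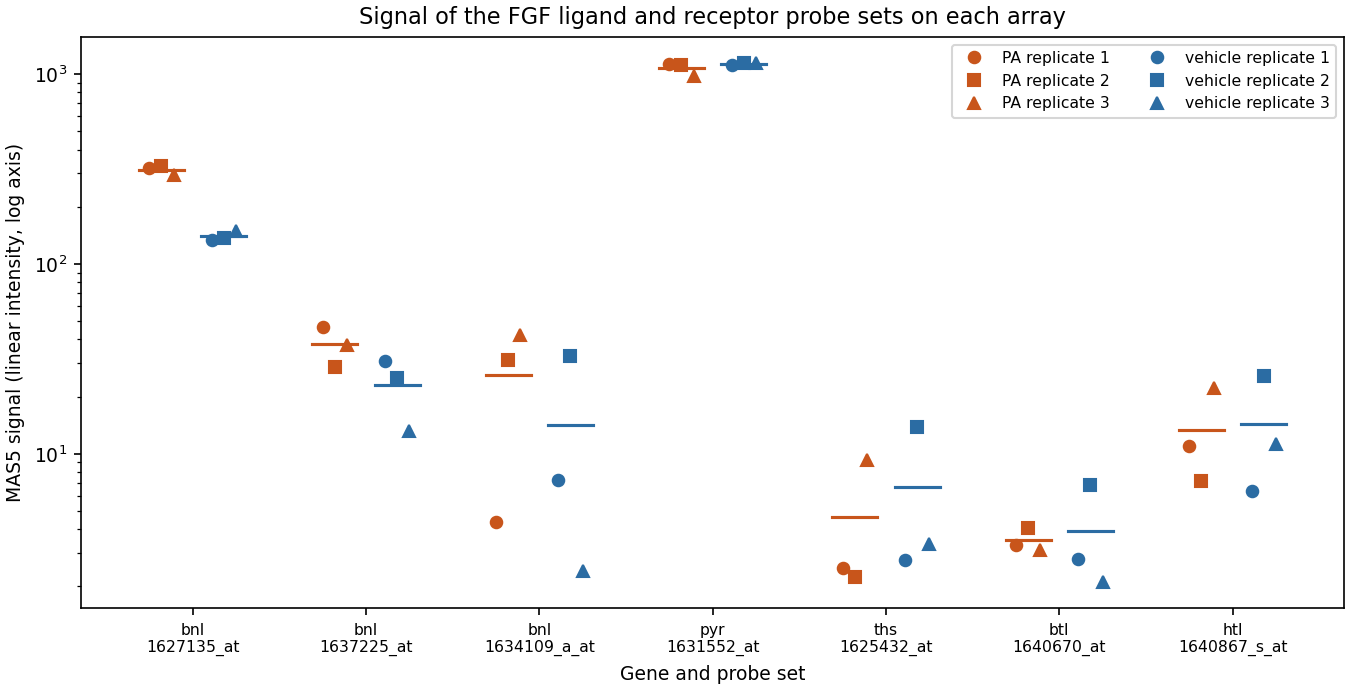
MAS5 signal (log axis) of each FGF probe set on the 3 PA arrays (orange) and the 3 vehicle arrays (blue), with replicates 1 to 3 as circles, squares and triangles and group means as bars. The groups are apart for bnl 1627135_at alone, at 295 to 327 with PA and 133 to 149.8 with vehicle.

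The other 2 probe sets of bnl had low signals that varied more between replicates. Probe set 1637225_at (percentile 55.3) had signals of 46.7, 28.8 and 37.5 with PA, against 30.9, 25.1 and 13.2 with vehicle. The PA mean was higher, but the lowest PA array lay below the highest vehicle array. Its log2 fold change was 0.77, with a standard error of 0.45. For 1634109_a_at (percentile 43.4), whose name ending marks probes shared by several transcripts of a gene, the signals were 4.38, 31.3 and 42.4 with PA, against 7.25, 32.8 and 2.41 with vehicle. These values overlapped widely, and the 95% interval of the log2 fold change of 1.11 ran from -1.11 to 3.34. All 3 probe sets thus had a higher mean signal with PA, and the size of the change in bnl rests on 1627135_at alone. Across 12 other settings the log2 fold change of that probe set stayed between 0.89 and 1.26, with the lowest value at an added offset of 64.

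**Figure D2:**
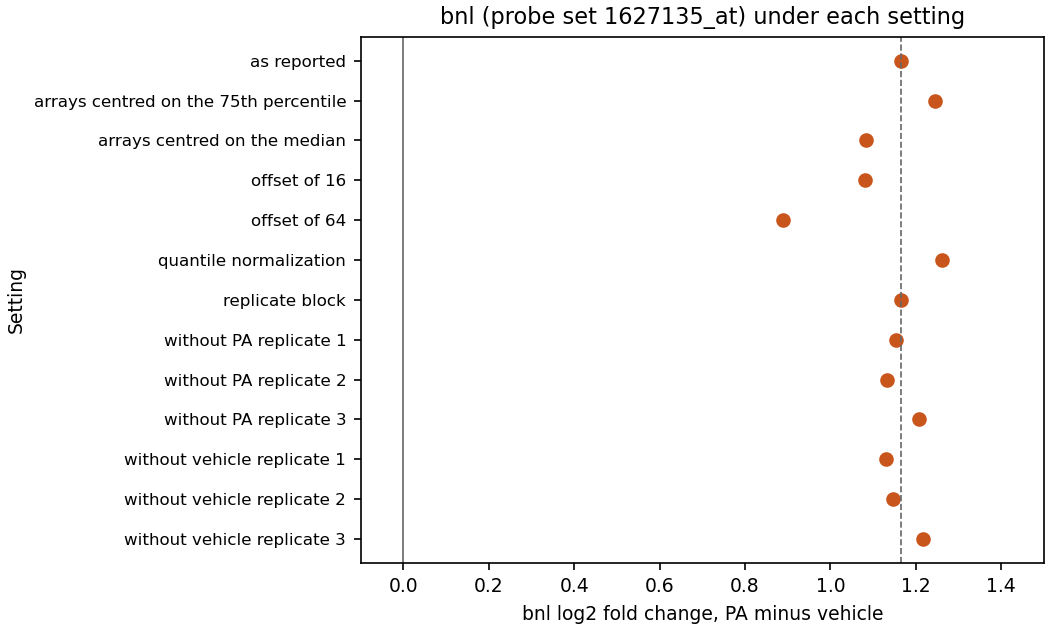
Log2 fold change (PA minus vehicle) of bnl 1627135_at as reported (dashed line, 1.17) and under each alternative setting. It ranges from 0.89 with an offset of 64 to 1.26 after quantile normalization, and from 1.13 to 1.22 when 1 array is left out.

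Pyr, a ligand of Htl, had a clear signal, at percentile 84.5 (probe set 1631552_at). Its signals were 1132, 1114 and 972 on the PA arrays, against 1116, 1147 and 1136 on the vehicle arrays. The groups overlapped, and PA replicate 3 stood lowest of the 6 arrays. On the log2 scale the fold change was -0.08, with a standard error of 0.06 and a 95% interval from -0.21 to 0.04, and without PA replicate 3 it was -0.01.

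Ths lies next to pyr in the RefSeq gene order, with no protein-coding gene between them, but its probe set 1625432_at stood only at percentile 21.0. Its signals were 2.50, 2.25 and 9.22 with PA, against 2.77, 13.9 and 3.37 with vehicle. One array in each group was several times brighter than the others, and the groups overlapped. Its log2 fold change of -0.44 had a standard error of 0.97, and it was 0.29 without vehicle replicate 2.

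The mean log2 signal of both receptors ranked in the lower 50% of probe sets. For btl, the receptor of Bnl, probe set 1640670_at (percentile 15.7) had signals of 3.30, 4.09 and 3.10 with PA, against 2.79, 6.85 and 2.11 with vehicle. All PA arrays lay within the range of the vehicle arrays. The log2 fold change was 0.02, with a 95% interval from -1.82 to 1.85, so a change of any size within that interval is compatible with these values. For htl, the receptor of Pyr and Ths, probe set 1640867_s_at (percentile 43.2) had signals of 10.9, 7.17 and 22.1 with PA, against 6.34, 25.6 and 11.2 with vehicle. The groups overlapped on both sides, with a log2 fold change of -0.03 and a standard error of 0.75. The ending of this probe set's name marks probes that can match more than 1 transcript.

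Of the 4 FGF probe sets in the lower 50% of signal, ths, htl and bnl 1634109_a_at were highest among the PA arrays on replicate 3. All 4, btl included, were highest among the vehicle arrays on replicate 2. Dim probe sets in general were brighter on these arrays. The 25th percentile of all signals was 5.73 on PA replicate 3, where the other PA arrays had 4.93 and 5.05. It was 5.40 on vehicle replicate 2, where the other vehicle arrays had 4.74 and 4.82. The part of this shift in the values of these probe sets was not tested. Without vehicle replicate 2 the log2 fold changes of btl and htl were 0.52 and 0.51, and without vehicle replicate 1 they were -0.13 and -0.50.

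**Figure D3:**
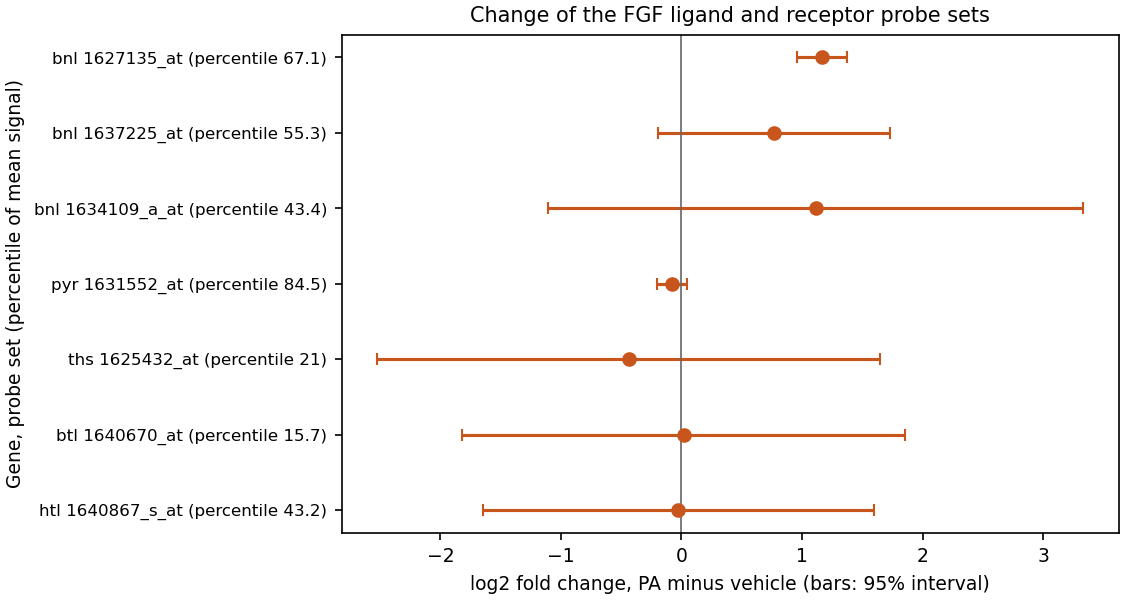
Log2 fold change (PA minus vehicle) of each FGF probe set, with 95% intervals from limma and the percentile of its mean signal. The intervals of bnl 1627135_at (0.95 to 1.38) and pyr (-0.21 to 0.04) are narrow, and those of the dim probe sets span 0 and more than a log2 unit on at least 1 side.

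In limma, a linear model whose variances are moderated across all 18769 probe sets, 1 of the 7 FGF probe sets (bnl 1627135_at) was called higher with PA at an adjusted p under 0.05, where 2.29% of all probe sets were called higher. None was called lower, where 2.82% of all probe sets were, and 0 of the 7 were lower at an unadjusted p under 0.05 by limma or by the methods' t-test, the plain test that the study applied to its arrays. The groups did not overlap for 1 of the 7, against 21.5% of all probe sets. Nothing is read from these counts, since bnl was known to differ in this contrast when the genes were chosen. When 1 prior variance was used at every signal level (no trend), limma called 0 of the 7. The median log2 fold change was 0.02 over the 7 and -0.01 over all probe sets.

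The RNA of the pathway downstream of the receptors was next compared between PA-treated and vehicle-treated cells. Each gene was represented by its brightest probe set, and of all 11982 genes 2.58% were called higher and 3.61% lower. Of the 14 listed genes of the Ras/MAPK cascade 10 were measured, all in the upper 50% of signal, and 0 were called in either direction by limma. No probe set was matched to Ras85D (Ras), Raf, rl (the MAPK itself) or Src42A, so the core of the cascade is only partly described. At an unadjusted p under 0.05, 4 of the 10 passed by limma and 2 by the methods' t-test, where 20.2% and 16.8% of all genes did. Dsor1, the MAPK kinase, had a log2 fold change of 0.24 (standard error 0.09, limma adjusted p = 0.153), and the adaptor Shc had 0.11 (standard error 0.04, limma adjusted p = 0.116). For Sos, which activates Ras, it was -0.15, and for the phosphatase csw, which binds activated receptors, it was -0.17. Dsor1 was called without vehicle replicate 3 (limma adjusted p = 0.0484) and with the label number as a block (0.0421). With arrays centred on their 75th percentile both Dsor1 (0.0455) and Shc (0.0145) were called. Dsor1 was not called in the other settings, among them centring on the median (0.535), quantile normalization (0.0927) and no trend (0.595). The median log2 fold change was -0.01 over the 10 genes, against -0.02 over all genes. The cascade is regulated mainly by phosphorylation, which arrays do not measure.

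Genes that are switched on by Ras/MAPK signalling or that restrain it were measured for 10 of 13, with no probe set matched to pnt, Spred or RasGAP1. None was called in either direction by limma, where 2.58% of all genes were called higher and 3.61% lower. At an unadjusted p under 0.05, 2 passed by limma and 0 by the methods' t-test, where 20.2% and 16.8% of all genes did. The gene sty (sprouty), an inhibitor that receptor tyrosine kinase signalling induces, was among the brightest genes of the arrays at percentile 98.8. It had signals of 9852, 9697 and 10205 with PA, against 9796, 11027 and 9828 with vehicle, and was chosen after its values were seen. The groups overlapped, and the 95% interval of its log2 fold change of -0.04 was -0.14 to 0.06. For cic (capicua), a repressor that MAPK inactivates, the log2 fold change was -0.25 (standard error 0.07, limma adjusted p = 0.0713). For aos (argos), a secreted inhibitor of the epidermal growth factor receptor, it was -0.17. It was 0.20 for kek1, another inhibitor of that receptor, and -0.09 for aop (yan), an Ets repressor. Cic was called without vehicle replicate 3 (limma adjusted p = 0.0274) and with each array centred on its median (0.0379). It was also called when only probe sets in the upper 50% of signal entered (0.0455). It was not called in the other settings, among them centring on the 75th percentile (0.22), quantile normalization (0.279) and no trend (0.523). Over both lists, no 95% interval of a gene's brightest probe set reached below -0.41 or above 0.45. These bounds leave out the dimmer probe sets of Cbl, sty, Mkp3, Nf1 and cic. The log2 fold change of the dimmer cic probe set lay below the lower bound, and that of a dimmer Nf1 probe set lay near the upper bound. Neither was called by limma. The median over the 10 genes measured here was -0.09.

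**Figure D4:**
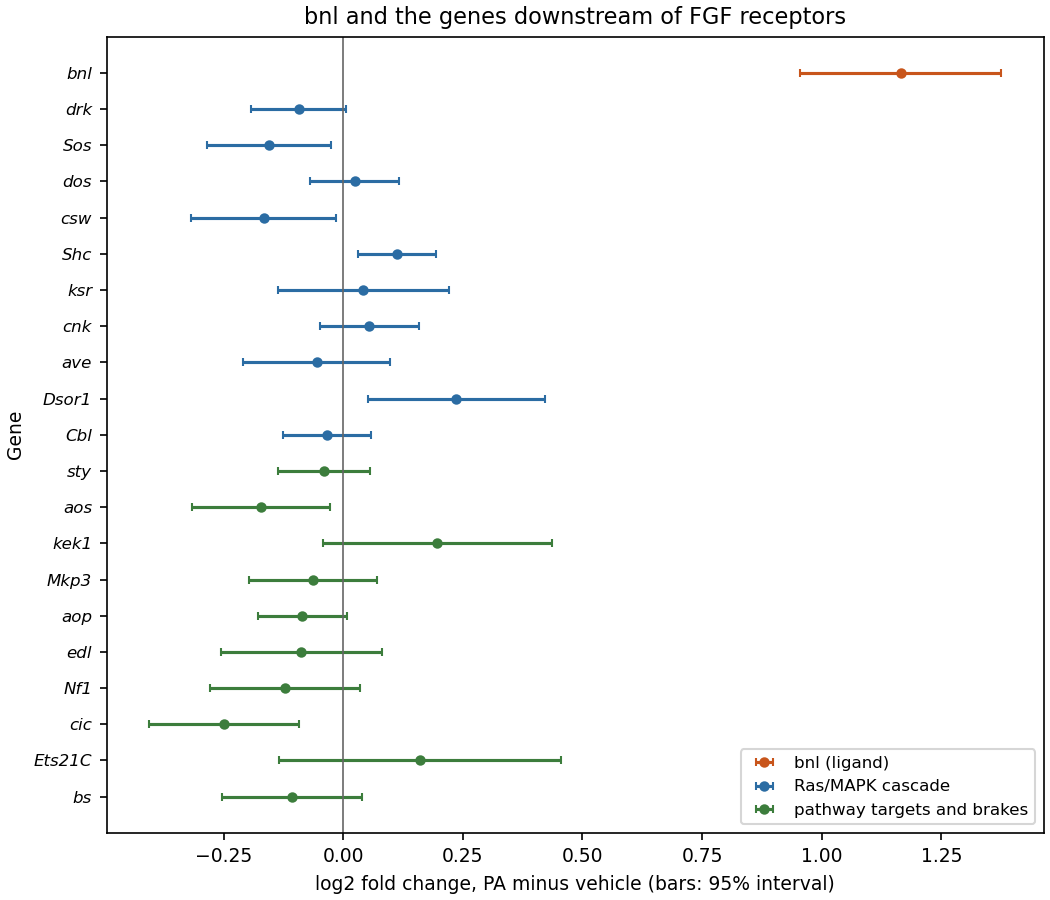
Log2 fold change (PA minus vehicle) with 95% intervals from limma for bnl 1627135_at (orange), 10 genes of the Ras/MAPK cascade (blue) and 10 targets and brakes of the pathway (green). By their brightest probe sets, the 20 downstream genes lie between -0.25 and 0.24, and bnl lies at 1.17.

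FGF ligands bind their receptors together with heparan sulfate, the sugar chain of cell surface proteoglycans. Of 22 listed genes for the synthesis, the core proteins and the editing of heparan sulfate, and for ligand cleavage, 18 were measured. None was called in either direction by limma, where 2.58% of all genes were called higher and 3.61% lower. At an unadjusted p under 0.05, 6 passed by limma and 4 by the methods' t-test, where 20.2% and 16.8% of all genes did. All 6 that passed by limma had lower signals after PA. The share of all genes lower at that limit is not given here, so nothing is read from their direction. The 4 with the smallest p were sgl, which makes UDP-glucuronic acid (log2 fold change -0.17, limma adjusted p = 0.0548), sll, a transporter of the sulfate donor (-0.21, 0.0665), the sulfotransferase Hs6st (-0.27, 0.0688) and the sulfatase Sulf1 (-0.22, 0.104). When only probe sets in the upper 50% of signal entered, sgl, sll and Hs6st were called (limma adjusted p = 0.0314, 0.0419 and 0.0444). Sgl was also called without PA replicate 2 (0.0306) and sll without PA replicate 3 (0.049). With arrays centred on their 75th percentile, the log2 fold changes of sgl, sll, Hs6st and Sulf1 were -0.09, -0.13, -0.19 and -0.14. None was called there (limma adjusted p = 0.452, 0.272, 0.191 and 0.398). The 75th percentile of signal was 492 to 495 on the PA arrays, against 515 to 534 on the vehicle arrays. The part of this shift in the values of these genes was not tested. The median over the 18 was -0.05, against -0.02 over all genes.

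Of 12 listed other receptor tyrosine kinases 11 were measured, and 1 was called. Pvr, the receptor of the PDGF and VEGF family that blood cells use, had a signal of 6015 ± 221 with PA and 6745 ± 339 with vehicle (SD, n = 3 each). It fell, its log2 difference being -0.16 (standard error 0.04, limma adjusted p = 0.0386), and was 1 of 11 genes (9.09%) called lower, against 3.61% of all genes. This call was lost without any 1 of the arrays other than vehicle replicate 1 (adjusted p = 0.0543 to 0.164), with each array centred on its median or 75th percentile, with an offset of 16 or 64 added to the signals and with no trend. InR, the insulin receptor, had a log2 fold change of -0.13 (limma adjusted p = 0.163). At signals of at most 60.8 on average, Ret had -0.75 and Nrk -0.86, with standard errors of 0.39 and 0.33. Egfr stood at percentile 19.0. The median over the 11 was -0.16, and 5 of the 11 lay in the lower 50% of signal.

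Among ligands of those other receptors 10 of 11 were measured. By limma 0 were called, where 2.58% of all genes were called higher and 3.61% lower. At an unadjusted p under 0.05, 2 passed by limma and 1 by the methods' t-test, where 20.2% and 16.8% of all genes did. Pvf2, a ligand of Pvr chosen after its values were seen, had a signal of 7381 ± 41.4 with PA and 7346 ± 313 with vehicle (SD, n = 3 each), at percentile 98.1. Krn, a ligand of the epidermal growth factor receptor, had a log2 fold change of 0.24 (standard error 0.12, limma adjusted p = 0.36). For Pvf1 it was -0.22 (standard error 0.08, limma adjusted p = 0.144). The ligands trk (1.61) and jeb (-0.91) had mean signals of at most 29.3, with standard errors of 0.69 and 0.79. The median of the list was 0.04.

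In larvae short of oxygen, bnl is raised through the hypoxia-inducible factor, a pair of Sima and Tango. Of the 4 listed genes of this sensor 2 were called higher with PA (50%, against 2.58% of all genes), but the study had picked Hph on these same arrays, so this count is no independent evidence. Hph, the prolyl hydroxylase that marks Sima for degradation, rose by a log2 fold change of 1.58 (standard error 0.05, limma adjusted p = 1.34e-10), and Vhl, which binds the marked Sima, rose by 0.24. The call of Vhl (adjusted p = 0.023) was lost when PA replicate 1, PA replicate 2, vehicle replicate 1 or vehicle replicate 3 was left out (0.0752 to 0.103), with each array centred on its median, with an offset of 64 and with no trend. For sima the signals were 649, 738 and 746 with PA, against 689, 717 and 722 with vehicle. These overlapped, and the log2 fold change was 0.001 with a 95% interval from -0.13 to 0.13. For tgo it was -0.11 (standard error 0.04, limma adjusted p = 0.197).

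Genes with a pattern like that of bnl were sought among the 7347 other genes in the upper 50% of signal. The log2 signals of each gene on the 6 arrays were taken relative to its own vehicle mean, and the root mean square difference from bnl 1627135_at was used as the measure. The 5 nearest were Fpps (0.11), an enzyme of isoprenoid synthesis, Dgp-1 (0.14), b6 (0.14), the glutathione transferase GstD2 (0.23) and Gclm (0.24), a subunit of the enzyme that starts glutathione synthesis. Since the measure is set largely by the difference between the groups, all 5 had every PA array above every vehicle array by the way they were found, and no test is read from them. The mean signal of b6 was 30.7 ± 4.10 with PA and 14.5 ± 0.33 with vehicle (SD, n = 3 each). This gene stood at percentile 52.0, with a log2 fold change of 1.07 and a 95% interval from 0.05 to 2.09. It was not called (limma adjusted p = 0.261).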

How the data were processed

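The authors hybridized RNA of 3 PA-treated and 3 vehicle-treated S2 cell samples to GeneChip Drosophila genome 2.0 arrays and deposited MAS5 signals (intensity, linear scale; MAS5 version not given in the sources used here). The trimmed mean of all probe sets with the controls (2% left out at either end) was 500 on all arrays, so no further scaling was applied. After leaving out 183 controls, log2 signals of 18769 probe sets were fitted with limma 3.58.1 in R 4.3.3 (trend on mean signal), PA minus vehicle, with Benjamini-Hochberg adjustment. The script was tested on simulated data. The platform annotation gave 1 gene to 13647 probe sets, and 13544 of these took a current symbol through the gene identifier. In lists, each gene stood by its brightest probe set (mean of log2 signals).

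The FGF genes, lists and tests were chosen with earlier results of these data known. Up to 4 genes per list, those with the smallest p, and the 5 genes most like bnl were named. The methods' t-test (Student's, p under 0.05) was run on the same log2 signals. Whether label numbers 1 to 3 pair the arrays is not stated, and no sign of pairing was seen: residual correlations across all probe sets were -0.0012, 0.019 and -0.0016 for same-numbered arrays. Separate culture of the samples is not stated, so the p-values reflect spread among these samples that may be purely technical. Precision is limited by having 6 arrays. Alternatives were other scalings, offsets, a signal filter, no trend, a block and leaving out each array.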

Additional observations from a re-analysis of the deposited data

How the results depend on the processing

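The log2 fold change of bnl 1627135_at (1.17) was 1.08 with an offset of 16, 0.89 with an offset of 64 and 1.26 after quantile normalization, and 1.13 to 1.22 when 1 array was left out. The offsets weigh most on low signals. The count of FGF probe sets called higher was 1 in each alternative but 0 with no trend, and 0 were called lower in each. The 3 dim probe sets of ths, btl and htl had log2 fold changes on both sides of 0 when arrays were left out (-1.09 to 0.29, -0.33 to 0.52 and -0.50 to 0.51), so their direction is not settled at this signal. The median over all probe sets was -0.01, and 0.07 and -0.09 with centring on the 75th percentile and the median.

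Over all probe sets, 429 were called higher and 529 lower. Centring on the 75th percentile gave 988 and 211, centring on the median 58 and 350, quantile normalization 238 and 266, and no trend 7 and 0. With an offset of 64, 225 and 314 were called, and with an offset of 16, 270 higher. The methods' t-test with limits of over 1.5-fold and under 0.67-fold gave 354 and 231, and 14 and 0 after Benjamini-Hochberg adjustment. The study reported far fewer genes at a t-test and these fold limits. It does not state the signal scale of its test or any filter of probe sets, so its test may have differed from the one run here. Leaving out 1 array gave 196 to 402 higher and 262 to 412 lower.

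Of the Ras/MAPK cascade, 2 genes were higher with centring on the 75th percentile and 0 to 1 without 1 array. Of the targets and brakes, 1 was lower with centring on the median or in the upper 50% of signal and 0 to 1 without 1 array. Of the heparan sulfate genes, 3 were lower in the upper 50% of signal and 0 to 1 without 1 array. Of the other receptors, 0 were lower with either centring, either offset or no trend and 0 to 1 without 1 array. Of the oxygen-sensing genes, 1 was higher with centring on the median, an offset of 64 or no trend, and 1 to 2 without 1 array. The log2 fold change of sima (0.001) was -0.0797 with centring on the median, and -0.035 to 0.0653 when 1 array was left out (-0.0275 without PA replicate 2, -0.035 without PA replicate 3 and -0.0196 without vehicle replicate 1).

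With the label number as a block, 386 probe sets were called higher and 557 lower, 1 gene of the cascade (Dsor1) was higher and 2 heparan sulfate genes (sgl and Sulf1) were lower. The log2 fold change of bnl was 1.17 with this block.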
